A study of Lactuca sativa with 9 samples.

Results

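Some genes of romaine lettuce leaves were expressed outside the range of both other genotypes in ‘Manatee’ (ISL), the cultivar of intermediate shelf-life. A gene was placed in this set when its 3 ‘Manatee’ libraries all lay above, or all below, the 6 libraries of the short shelf-life breeding line 60184 (SSL) and the long shelf-life cultivar ‘Okeechobee’ (LSL). The rule held for 2641 of 22658 tested genes, 11.7% of them, with ‘Manatee’ above both for 1407 genes (6.21%) and below both for 1234 (5.45%). It was applied to log2 CPM, the log2 of read counts per library size scaled by TMM (CPM) with a prior count of 2, and a gene was tested if it had 10 or more reads in 3 or more libraries. RNA came from mature plants, from the fully expanded leaf nearest the rosette centre. The study states this for 60184 and ‘Okeechobee’ and does not name ‘Manatee’ there. Each genotype had 3 replicates, all from pots in a growth chamber set to 22 °C and 16 h of light, and the labels name no treatment that differed between them. The samples were labelled as mature leaf, the study calls its replicates biological, and the p-values measure the spread between these samples.

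Cut or harvested leaves senesce. Chlorophyll and the antenna proteins are broken down, hormones such as ethylene and jasmonate start gene programmes through NAC, WRKY and AP2/ERF transcription factors, and phenolic compounds are oxidised to brown pigments. Cultivars can also differ in genes that one of them lacks or carries in a diverged form, and immune receptor genes are well known for such differences between plant lines. A phenotype between those of 2 others does not require every gene to be expressed between theirs, and the comparison asks where ‘Manatee’ was not intermediate.

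The libraries held 24108451 to 32840811 reads in genes. Reads outside annotated genes made up 5.24% to 7.70% of the uniquely mapped reads in ‘Manatee’, 6.20% to 6.99% in 60184 and 6.41% to 12.01% in ‘Okeechobee’. ‘Manatee’ replicate 2 stood apart from the other ‘Manatee’ libraries. The chi-square per degree of freedom of its counts against replicates 1 and 3 was 115 and 105, whereas replicates 1 and 3 differed by 17.7. 60184 replicate 1 stood apart from replicates 2 and 3 in the same way, at 65.5 and 66.9 against 9.56 between those, and its antenna genes summed to 43860.4 CPM against 17591 and 18610 in the others. The ‘Okeechobee’ libraries differed from one another by 51.3 to 96.6. On a scale over all tested genes that puts the mean of 60184 at 0 and that of ‘Okeechobee’ at 1, ‘Manatee’ replicates 1, 2 and 3 lay at 0.55, 0.76 and 0.56. The counts by gene group below are therefore also given without ‘Manatee’ replicate 2, and without 60184 replicate 1 where that moved them by over 1.5 times or turned their direction. In bulk leaf RNA, fewer cells of a type and less RNA per cell cannot be told apart. The leaves carried the markers of green mesophyll, since the 24 antenna genes summed to 5036 to 10426 CPM in the ‘Manatee’ libraries, 17591 and above in 60184 and 3994 to 7770.1 in ‘Okeechobee’, and each was read in every genotype.

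‘Manatee’ stood apart from both other genotypes less often than either of them did. By the same rule 6029 genes (26.6%) lay outside the range in 60184 and 4272 (18.9%) in ‘Okeechobee’. For 1065 genes (4.70%) the 3 genotypes did not overlap and ‘Manatee’ lay in the middle, rising from 60184 to ‘Okeechobee’ for 486 genes (2.14%) and falling for 579 (2.56%). Without ‘Manatee’ replicate 2 there were 2683 such intermediate genes and 3663 outside the range. A rule on 2 libraries is easier to meet than one on 3. With replicate 1 or 3 left out instead, 1549 and 1392 genes were intermediate, and 3554 and 3605 lay outside the range. The rise in intermediate genes was thus largest without replicate 2, while the counts outside the range were alike. Without 60184 replicate 1 there were 1322 intermediate genes. The mean of ‘Manatee’ lay between the other means for 9897 genes, 43.7% of those tested, when no rule on single libraries was set.

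The contrast of ‘Manatee’ with the mean of the other genotypes called 2376 genes at an adjusted p under 0.05 in edgeR’s quasi-likelihood test, 10.5% of all tested genes. Of these, 1428 (6.30%) were higher and 948 (4.18%) lower in ‘Manatee’. With 1 library left out the contrast called 1322 to 2476 genes, fewest without ‘Manatee’ replicate 3, and 1505 without replicate 2. The same contrast called 6584 genes (29.1%) for 60184 and 5772 (25.5%) for ‘Okeechobee’. Leaving out 1 library of 60184 lowered its count to 3603, 3664 or 4094. Among the 2641 genes outside the range, 1532 were called and 1109 were not. The contrast reads the same counts as the rule, so these calls describe the genes and add no separate support. Against 60184 alone 17.9% of tested genes were called and against ‘Okeechobee’ alone 13.8%. Tested against each separately, 425 genes (1.88%) were called higher than both and 358 (1.58%) lower than both, 783 (3.46%) in all.

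**Figure D1:**
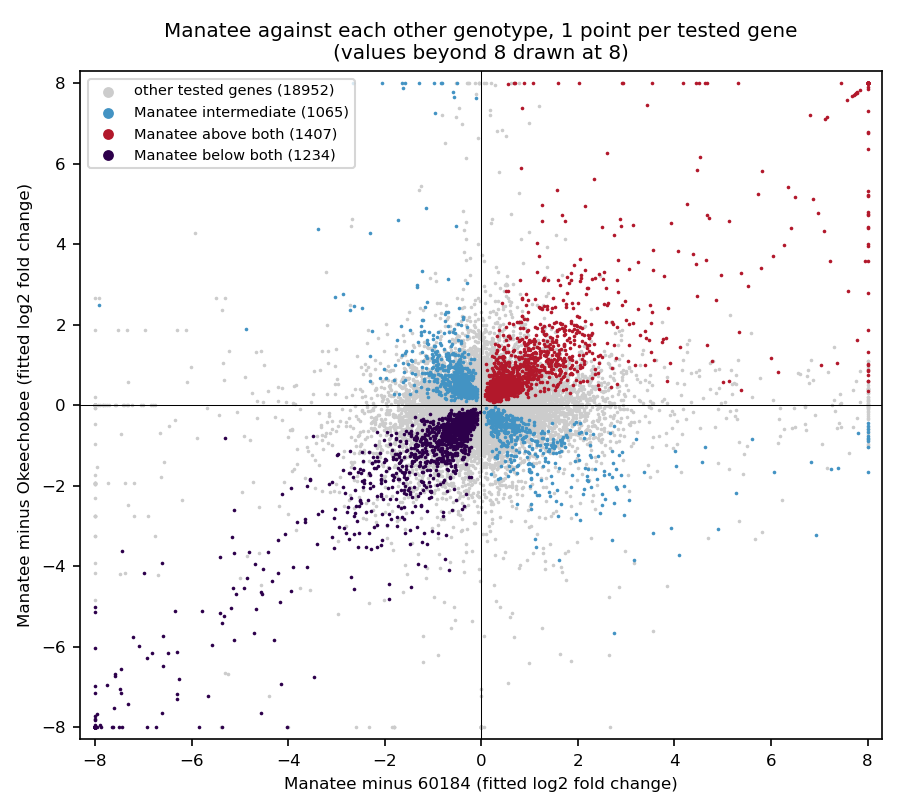
Fitted log2 fold change of Manatee against 60184 (x axis) and against Okeechobee (y axis), 1 point per tested gene, coloured by its place relative to the other genotypes, with values beyond 8 drawn at 8. The 1407 genes above both fall in the upper right, the 1234 genes below both in the lower left, and the 1065 intermediate genes in the upper left and lower right. The placement follows from the rule, and points at the edges include genes with hardly any reads in a genotype.

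Most of the distances were small. The median distance of ‘Manatee’ from the nearer genotype was 0.57 on the log2 scale over the 2641 genes (quartiles 0.33 and 1.17), compared with 0.20 over all tested genes and 0.46 over the intermediate genes. A distance of at least 1, which is a doubling or more, was reached by 782 of the genes outside the range, 406 above (1.79%) and 376 below (1.66%). They are 3.45% of all tested genes, and are called the distant genes here. The rule selects on the distance, and it favours genes at which the other genotypes are close to each other. The medians given here therefore follow in part from the choice. Between ‘Okeechobee’ and 60184 the median absolute log2 difference was 0.25 over the genes outside the range, 1.28 over the intermediate genes and 0.46 over all tested genes. ‘Manatee’ was closer to 60184 for 1444 of the 2641 genes and closer to ‘Okeechobee’ for 1197, whereas over all tested genes it was closer to ‘Okeechobee’ for 12148 and to 60184 for 10510.0.

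The balance between the directions depended on level and on scaling. With tested genes cut into 4 equal bins of mean log2 CPM, in the highest bin 8.90% lay above the range and 3.32% below, whereas in the lowest bin 5.07% lay above and 6.05% below. With upper quartile scaling 1151 genes were above and 1478 below, and with library size only 1062 were above and 1242 below. Without 60184 replicate 1, 1468 were above and 1595 below. The excess of genes above both thus turned into an excess below both in those 3 settings. Under upper quartile scaling, 1128 of its genes above and 1220 of its genes below were also in the sets described here. Gene Lsat_1_v5_gn_2_82040 was the last to meet the rule. Its gap to the nearest library was 1.1e-04 log2 units, with 14.6, 15.6 and 14.8 CPM in ‘Manatee’ and a highest value elsewhere of 14.6 CPM. Gene Lsat_1_v5_gn_4_136381 just missed it, by a gap of -3.4e-05. In 134 further genes ‘Manatee’ and another library tied at 0 reads, and these were not counted as below.

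A part of the set was close to silent in 1 or more genotypes. Of the 1234 genes below both, 102 had at most 3 reads over the 3 ‘Manatee’ libraries and 76 of them had none. Of the 1407 genes above both, 50 had at most 3 reads in each of the other genotypes, 35 had so few in 60184 alone and 19 in ‘Okeechobee’ alone. Reads were mapped to the genome of another cultivar, so a gene that is missing or diverged in a genotype and a gene that is not expressed there cannot be told apart in these counts.

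Of the 76 genes without a ‘Manatee’ read, an enzyme of phenolic oxidation had the most reads in the other genotypes. Lsat_1_v5_gn_9_102320 is described as a catechol oxidase or tyrosinase, the polyphenol oxidase type of enzyme that browns cut tissue. It had no read in ‘Manatee’, 163, 291 and 457 CPM in 60184 and 570.2, 482 and 556 in ‘Okeechobee’. No ‘Manatee’ library held a read of it, while the other genotypes had 29717 and 45284 reads in all. Its level was at least 9331-fold lower in ‘Manatee’ than in 60184 and at least 16183-fold lower than in ‘Okeechobee’, with a floor of 3 reads over the genotype (adjusted p = 2.4e-05, edgeR’s quasi-likelihood test). Its mean CPM over all libraries was among the 3 highest of the described genes below both.

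Cinnamyl-alcohol dehydrogenase, which makes the alcohol precursors of lignin, went the other way. Lsat_1_v5_gn_4_34741 had 218, 151 and 223 CPM in ‘Manatee’, 9.59, 13.6 and 15.6 in 60184 and 9.74, 10.5 and 5.46 in ‘Okeechobee’. Every ‘Manatee’ library was above 100 CPM and every other library below 20. The log2 difference in the contrast was 4.23 (standard error 0.23, adjusted p = 9.2e-06), and the mean CPM was 15.2 times that of 60184 and 23.0 times that of ‘Okeechobee’.

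Lsat_1_v5_gn_2_46060 is described as an anthocyanidin glucosyltransferase (UGT75C1) and also as an indole-3-acetate glucosyltransferase, enzymes that join glucose to a pigment or to auxin. It had 465, 501 and 453 CPM in ‘Manatee’, 238, 201 and 214 in 60184 and 74.9, 76.2 and 74.8 in ‘Okeechobee’. The 3 genotypes did not overlap, with ‘Manatee’ highest and ‘Okeechobee’ lowest. Its log2 difference was 1.12 against 60184 and 2.65 against ‘Okeechobee’ (adjusted p of 7.8e-04 and 6.8e-06).

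Lsat_1_v5_gn_2_50620 is described as a pathogen-inducible glucosyltransferase of salicylic acid, a defence hormone that is stored as a glucoside. It had 49.9, 53.2 and 59.2 CPM in ‘Manatee’, 12.4, 13.0 and 9.73 in 60184 and 17.2, 13.0 and 18.2 in ‘Okeechobee’. The other genotypes overlapped each other and ‘Manatee’ lay above both, by 1.98 in the contrast (standard error 0.13, adjusted p = 2.4e-05).

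A pair of lipid genes was among the 12 genes with the smallest p above both genotypes. Lsat_1_v5_gn_6_36801 is described as fabG, a reductase of fatty acid synthesis. It had 204, 161 and 187 CPM in ‘Manatee’, 65.2, 60.4 and 64.4 in 60184 and 40.5, 29.0 and 31.7 in ‘Okeechobee’. All ‘Manatee’ libraries had more than 100 CPM and none of the others did, a contrast of 1.99 (standard error 0.13, adjusted p = 1.7e-05). Lsat_1_v5_gn_4_35961 is related to the acyltransferase GPAT4, which in Arabidopsis makes building blocks of cutin. It had 21.3, 19.9 and 20.8 CPM in ‘Manatee’, 8.92, 7.25 and 8.07 in 60184 and 3.45, 4.32 and 3.47 in ‘Okeechobee’. Its order was the same, highest in ‘Manatee’ and lowest in ‘Okeechobee’, with a contrast of 1.91 (adjusted p = 1.7e-05).

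For several of the genes with the smallest p, ‘Manatee’ was near 1 of the genotypes and the other had hardly a read. Lsat_1_v5_gn_9_68580 is an MLO-like membrane protein, of the family named after a barley gene for mildew susceptibility. It had 60.7, 109.9 and 69.0 CPM in ‘Manatee’, 53.8, 39.4 and 40.1 in 60184 and 0.364, 0.453 and 0.625 in ‘Okeechobee’. ‘Manatee’ was 0.85 log2 units above 60184 (adjusted p = 0.037), while ‘Okeechobee’ had only 40 reads in all. Lsat_1_v5_gn_3_139181 is related to SPA1, which in Arabidopsis acts with COP1 to repress light responses. Its ‘Manatee’ libraries had 15.7, 18.2 and 12.7 CPM, those of 60184 7.16, 9.25 and 9.88 and those of ‘Okeechobee’ 0.265, 0.349 and 0.156. Its distance from 60184 was 0.83 (adjusted p = 0.033). The transposase-like gene Lsat_1_v5_gn_3_84721 had 17.6, 14.4 and 17.0 CPM in ‘Manatee’, 11.95, 8.79 and 9.61 in 60184 and no read in ‘Okeechobee’. It differed from 60184 by 0.69 log2 units (adjusted p = 0.041).

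The paired genes Lsat_1_v5_gn_1_126981 and Lsat_1_v5_gn_1_127001 carry close identifiers and the same description, topoisomerase 6 subunit B, part of an enzyme that untangles DNA in cells that copy their genome without dividing. Lsat_1_v5_gn_1_126981 had 33.3, 34.7 and 23.3 CPM in ‘Manatee’, no read in 60184 and 1.33, 1.22 and 0.859 in ‘Okeechobee’. Lsat_1_v5_gn_1_127001 had 45.4, 39.6 and 41.9 CPM in ‘Manatee’, no read in 60184 and 1.56, 2.13 and 0.820 in ‘Okeechobee’. Neither had a read in 60184, and ‘Okeechobee’ lay between. If the copies are nearly identical, the split of uniquely mapped reads between them is uncertain.

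Below both genotypes, 5 of the 12 described genes with the smallest p had no read in ‘Manatee’. Lsat_1_v5_gn_5_5481 is described as an acetylornithine transaminase, an enzyme of arginine synthesis. It had no read in ‘Manatee’, 19.4, 17.9 and 16.9 CPM in 60184 and 19.6, 19.7 and 20.02 in ‘Okeechobee’. The other genotypes overlapped and ‘Manatee’ had no read, at least 545-fold lower than 60184 and at least 596-fold lower than ‘Okeechobee’ (adjusted p = 2.2e-06). Lsat_1_v5_gn_1_40161, described as a sucrose synthase, which splits sucrose for the use of its sugars, had no read in ‘Manatee’, 8.12, 8.88 and 7.98 CPM in 60184 and 10.4, 8.16 and 8.90 in ‘Okeechobee’. It too was silent in ‘Manatee’ alone, at least 251-fold and 277-fold below the others.

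Lsat_1_v5_gn_6_68221, a ferric reductase-like gene whose kind of enzyme reduces iron at membranes, had 1 read in ‘Manatee’, 1585 in 60184 and 1627 in ‘Okeechobee’. The ratio of 60184 to ‘Manatee’ was 1493, with a 95% counting interval of 268 to 59006. A tested gene with a close identifier, Lsat_1_v5_gn_6_68241, described as an inner nuclear membrane protein with a LEM domain, had no read in ‘Manatee’ and 931 and 939 in the others. The ankyrin repeat genes Lsat_1_v5_gn_2_71081 and Lsat_1_v5_gn_2_71101 formed a second such pair. Lsat_1_v5_gn_2_71081 had 0, 0 and 0.0643 CPM in ‘Manatee’, 16.5, 21.9 and 24.96 in 60184 and 20.8, 20.4 and 18.9 in ‘Okeechobee’. Lsat_1_v5_gn_2_71101 had no read in ‘Manatee’, 6.13, 7.59 and 8.69 CPM in 60184 and 13.1, 15.1 and 13.2 in ‘Okeechobee’. In both, ‘Manatee’ was at or near 0 in every library and the other genotypes were above 6 CPM. Such counting intervals and floors cover counting error only.

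Lower without being silent was Lsat_1_v5_gn_1_40080, a protein kinase and cation-transporting ATPase by its domains. It had 3.27, 1.48 and 2.83 CPM in ‘Manatee’, 97.3, 109.9 and 108 in 60184 and 109, 95.3 and 118 in ‘Okeechobee’. The other genotypes overlapped, and the log2 difference in the contrast was -5.39 (standard error 0.26, adjusted p = 6.1e-06). Lsat_1_v5_gn_6_41981, a serine carboxypeptidase, had 8, 855 and 412 reads in ‘Manatee’, 60184 and ‘Okeechobee’, a contrast of -6.17 (adjusted p = 9.2e-06). Lsat_1_v5_gn_8_68341, a transposase-like gene, had 1.67, 0.777 and 0.933 CPM in ‘Manatee’, 31.6, 28.0 and 28.2 in 60184 and 18.9, 17.3 and 16.1 in ‘Okeechobee’. All 3 genotypes were apart, with ‘Manatee’ lowest.

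**Figure D2:**
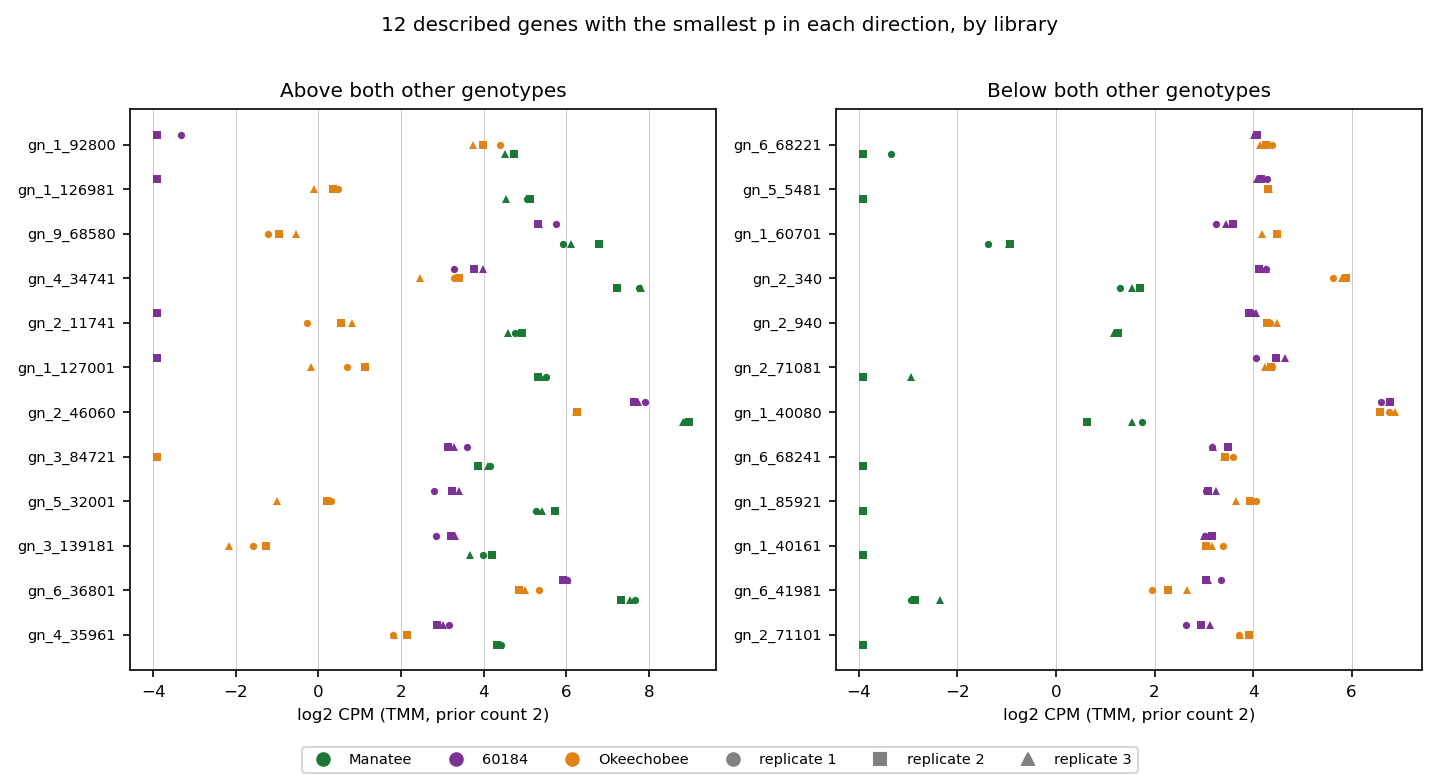
Log2 CPM (TMM, prior count of 2) of the 12 described genes with the smallest p above both other genotypes (left) and below both (right), 1 symbol per library, coloured by genotype. Genes are named by the end of their identifiers. In the right panel 5 of the 12 genes have no read in any Manatee library and sit at the lowest value, which stands for 0 reads.

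Described genes of the set with the highest mean CPM, a value not corrected for gene length, differed less. Lsat_1_v5_gn_5_96340, a blue copper protein of the small electron carriers, had 949, 2354 and 1124 CPM in ‘Manatee’, 533, 549 and 594 in 60184 and 859.9, 883 and 745 in ‘Okeechobee’. ‘Manatee’ replicate 2 was more than double the other ‘Manatee’ libraries, and replicate 1 was only just above the ‘Okeechobee’ range. The contrast was 1.12 (standard error 0.26, adjusted p = 0.027). Lsat_1_v5_gn_2_29221, a terpene synthase described as viridiflorene synthase, an enzyme that closes a sesquiterpene ring, had 961, 1355 and 931 CPM in ‘Manatee’, 488, 374 and 452 in 60184 and 906, 910.1 and 727 in ‘Okeechobee’. It was 1.30 log2 units above 60184 (adjusted p = 0.0039) and 0.35 above ‘Okeechobee’ (adjusted p = 0.3), so the second difference did not pass the test although the libraries did not overlap. Below the range, an RNA recognition motif gene, Lsat_1_v5_gn_7_91261, had 206, 188 and 231 CPM in ‘Manatee’, 429.6, 542 and 481 in 60184 and 237, 270.2 and 309.6 in ‘Okeechobee’.

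Gene groups were read from descriptions, which the study’s tables give for 3732 of the tested genes. The study listed them from its own results on these libraries. 1996 of them are on a sheet of genes expressed in both 60184 and ‘Okeechobee’, of which 41.3% were called, and the rest are on sheets sorted or filtered by the difference between those genotypes, one of them used here in part, or on sheets of genes expressed in 1 of them. Of all described genes 29.8% were called, against 6.68% of the genes without a description. The counts of a list are therefore not independent evidence of its direction, and they are set beside those of all described genes, of which 9.99% lay above the range, 6.86% below and 14.5% in the middle. Over all described genes the contrast called 703 higher and 409 lower, with a median log2 difference of 0.06, and over all tested genes the median was 0.00. Without ‘Manatee’ replicate 2, 1277 of the 3732 described genes were intermediate, in place of 540. Then 404 described genes lay above and 299 below, 506 were called higher and 311 lower, and their median was -0.05. No list was tested against other genes.

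NAC transcription factors, which include regulators of senescence and stress, had the largest share above the range of the 28 lists. Of 17 measured, 8 were called higher in ‘Manatee’, none lower, and 9 did not pass. 5 lay above both genotypes and none below, and the median log2 difference was 0.80. Without ‘Manatee’ replicate 2, 6 were called higher, 5 lay above and 1 below, and the median was 0.43. Each of the 3 other scalings called 8 higher, none lower. A run of close identifiers gave the members with the smallest p, all described as NAC domain-containing protein 2.

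Lsat_1_v5_gn_6_56440 had 179, 354 and 178 CPM in ‘Manatee’, 61.8, 60.7 and 65.7 in 60184 and 27.1, 8.82 and 27.3 in ‘Okeechobee’. Lsat_1_v5_gn_6_56480 had 211, 601 and 226 CPM in ‘Manatee’, 53.1, 39.8 and 53.9 in 60184 and 122, 57.7 and 91.3 in ‘Okeechobee’. In each, ‘Manatee’ replicate 2 was the highest library, and replicates 1 and 3 also lay above all others. The contrasts were 2.703 (standard error 0.34, adjusted p = 0.0012) and 2.38 (standard error 0.34, adjusted p = 0.0027). The neighbouring Lsat_1_v5_gn_6_56420 was 1.82 higher (adjusted p = 0.0024). Lsat_1_v5_gn_4_176860, another NAC gene and one of the 3 described genes above both with the highest mean CPM, had 1030.0, 1569 and 1104 CPM in ‘Manatee’, 725, 636 and 643 in 60184 and 958, 639 and 655 in ‘Okeechobee’. Its contrast of 0.80 had an adjusted p of 0.032.

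Of 22 WRKY genes, which act in defence and senescence, 7 were called higher and 1 lower, and 4 lay above both genotypes and none below. All 3 of the named members were above, as they had to be, since they were picked from the genes outside the range. Library size only called 5 higher and 1 lower, with 1 gene below the range. Without ‘Manatee’ replicate 2 the calls were also 5 and 1, 2 genes lay below, and the median log2 difference went from 0.46 to 0.05. Lsat_1_v5_gn_8_103681, whose best match is WRKY33, a defence regulator in Arabidopsis, had 799, 1153 and 953 CPM in ‘Manatee’, 655, 654 and 678 in 60184 and 168, 104 and 135 in ‘Okeechobee’. ‘Manatee’ and 60184 were both far above ‘Okeechobee’, and the distance of ‘Manatee’ from 60184 was 0.55 (adjusted p = 0.1). Lsat_1_v5_gn_7_15520 had 70.7, 246 and 54.9 CPM in ‘Manatee’, 13.3, 8.45 and 9.79 in 60184 and 15.5, 5.68 and 14.9 in ‘Okeechobee’. Here the other genotypes overlapped, and ‘Manatee’ stood 3.46 above their mean (standard error 0.47, adjusted p = 0.0019), with replicate 2 more than 3 times either other ‘Manatee’ library.

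Of 74 genes of ethylene synthesis and the AP2/ERF family, 21 were called higher and 6 lower. 11 lay above the range and 3 below, and 8 of the 11 were distant. With ‘Manatee’ replicate 2 left out, 16 were called higher and 4 lower, with 14 above and 3 below. Lsat_1_v5_gn_5_112660 is matched to ERF109, a redox-responsive factor in Arabidopsis. It had 322, 242 and 327 CPM in ‘Manatee’, 167, 96.6 and 137 in 60184 and 23.1, 12.6 and 18.7 in ‘Okeechobee’. The genotypes were fully apart, with a contrast of 2.59 (standard error 0.22, adjusted p = 9.8e-05). Lsat_1_v5_gn_9_110040, an AP2 domain gene, had 433, 558 and 415 CPM in ‘Manatee’, 118, 77.4 and 101 in 60184 and 166, 101 and 178 in ‘Okeechobee’. Each ‘Manatee’ library had more than 2 times the level of any other. The oxygenase Lsat_1_v5_gn_0_19261, described as a homologue of the enzyme that makes ethylene, was 0.56 above 60184 (adjusted p = 0.17) and had 8 reads in ‘Okeechobee’ against 2259 in ‘Manatee’.

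The MYB list was split, with 6 of 41 called higher and 5 lower, 1 above the range and 3 below. These calls were 4 and 2 without ‘Manatee’ replicate 2. Of the list 9.76% lay outside the range, against 16.9% of all described genes. The single gene above was Lsat_1_v5_gn_4_108080, matched to MYB94, a factor that activates wax synthesis in Arabidopsis, with 32.7, 25.1 and 26.0 CPM in ‘Manatee’, 20.1, 24.8 and 23.9 in 60184 and 11.6, 7.78 and 9.52 in ‘Okeechobee’. Its distance from 60184 of 0.28 did not pass the test (adjusted p = 0.28), and with upper quartile scaling, library size only or 60184 replicate 1 left out no MYB gene lay above.

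Among described jasmonate genes more were intermediate than outside the range, which follows in part from how the genes were listed. Part of the described genes came from sheets sorted or filtered by the difference between 60184 and ‘Okeechobee’. The intermediate rule needs that difference, and 14.5% of described genes met it, against 2.77% of genes without a description. Of 20 enzymes of jasmonate metabolism and JAZ repressors, 7 were intermediate and rising from 60184 to ‘Okeechobee’, 1 lay above the range and none below, and 5 were called higher. Without ‘Manatee’ replicate 2, 15 were intermediate, 2 were called higher and 1 lower, and the median log2 difference went from 0.49 to -0.11. Without 60184 replicate 1, 3 were called higher. The gene above was Lsat_1_v5_gn_9_86541, a 9-lipoxygenase, which oxidises linoleate on a branch other than jasmonate. It had 23.1, 22.4 and 17.7 CPM in ‘Manatee’, 3.53, 7.22 and 6.41 in 60184 and 6.73, 13.3 and 16.7 in ‘Okeechobee’. Its contrast was 1.33 (standard error 0.29, adjusted p = 0.019).

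Auxin and gibberellin genes were called higher and lower equally often, 6 and 6 of 41, with 2 above the range and 4 below, and without ‘Manatee’ replicate 2 the calls were 6 and 5. Lsat_1_v5_gn_4_104440, described as the auxin response repressor IAA15 or IAA16, had 1.70, 0.742 and 2.09 CPM in ‘Manatee’, 3.10, 4.90 and 4.600 in 60184 and 14.7, 20.1 and 14.7 in ‘Okeechobee’. Lsat_1_v5_gn_1_77140, an ARGOS-like gene of organ size, had 24.98, 14.5 and 22.5 CPM in ‘Manatee’, 26.8, 25.04 and 26.9 in 60184 and 84.5, 143 and 126 in ‘Okeechobee’. Both were lowest in ‘Manatee’ and highest in ‘Okeechobee’. The distance from 60184 was -1.47 for the IAA gene (adjusted p = 0.021) and -0.35 for the ARGOS-like gene (adjusted p = 0.32).

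Calcium signalling genes had the highest count above the range, but the list is long, and several shorter lists, such as NAC, had a larger share. Of 109 measured, 26 were called higher and 7 lower, 18 lay above both genotypes and 4 below, and 22 were intermediate, 18 of them rising from 60184 to ‘Okeechobee’. Leaving out ‘Manatee’ replicate 2 gave 18 called higher and 7 lower, 18 above, 6 below and 49 intermediate, and the median log2 difference went from 0.42 to 0.09. Their summed level was 10734 to 22754 CPM in ‘Manatee’, with replicate 2 the highest, 6236 to 7513 in 60184 and 13522 to 17535 in ‘Okeechobee’. Lsat_1_v5_gn_8_82941, a calmodulin-binding protein, had 214, 314 and 211 CPM in ‘Manatee’, 76.1, 91.2 and 100 in 60184 and 96.4, 78.6 and 107 in ‘Okeechobee’. The other genotypes overlapped, and the contrast was 1.43 (standard error 0.17, adjusted p = 7.6e-04). Lsat_1_v5_gn_5_6781, a myosin with calmodulin-binding motifs, had 52.0, 49.4 and 43.4 CPM in ‘Manatee’, 15.9, 23.3 and 22.9 in 60184 and 25.3, 20.1 and 17.2 in ‘Okeechobee’, and was 1.21 higher (adjusted p = 0.0013). The cation/calcium exchanger Lsat_1_v5_gn_6_31481 was the member below the range with the smallest p, and its ‘Manatee’ reads totalled 39, against 66 in 60184 and 627 in ‘Okeechobee’.

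Immune receptors of the NB-ARC type, which detect pathogen proteins inside the cell, were found on both sides. Of 105 measured, 30 were called higher and 14 lower. 15 lay above the range and 7 below, and 5 and 6 of these were distant. 16 were intermediate, 13 rising and 3 falling. Library size only gave 24 higher and 16 lower, and without ‘Manatee’ replicate 2 there were 25 and 18, with 41 intermediate and a median log2 difference of 0.03 in place of 0.40. Lsat_1_v5_gn_2_11741, a TIR-NBS-LRR gene, had 27.1, 30.6 and 23.9 CPM in ‘Manatee’, no read in 60184 and 0.762, 1.40 and 1.68 in ‘Okeechobee’. ‘Manatee’ was at least 868-fold higher than 60184 and 4.41 log2 units above ‘Okeechobee’ (adjusted p = 1.8e-04). Lsat_1_v5_gn_1_92800 of the same class had 26.2, 26.5 and 23.0 CPM in ‘Manatee’, 0.0333, 0 and 0 in 60184 and 21.0, 15.7 and 13.3 in ‘Okeechobee’. ‘Manatee’ was 0.60 above ‘Okeechobee’ (adjusted p = 0.1), and 60184 had a single read.

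Lsat_1_v5_gn_2_340, an NB-ARC gene, had 2.40, 3.22 and 2.86 CPM in ‘Manatee’, 19.0, 17.2 and 19.1 in 60184 and 49.4, 58.9 and 55.9 in ‘Okeechobee’. The 3 genotypes were apart and ‘Manatee’ was lowest, with log2 differences of -2.71 from 60184 and -4.27 from ‘Okeechobee’ (adjusted p of 7.3e-06 and 1.6e-06).

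Receptor-like kinases and receptor-like proteins, which sense signals at the cell surface, were intermediate more often than outside. Of 173 measured, 27 were intermediate, 20 of them rising, while 14 lay above and 7 below. The intermediate share of 15.6% was near the 14.5% of all described genes. The contrast called 42 higher and 22 lower. Once ‘Manatee’ replicate 2 was left out, 74 were intermediate, 14 lay above and 9 below, and 29 were called higher and 22 lower. Lsat_1_v5_gn_1_89581, a kinase with a malectin domain, had 71.0, 78.8 and 73.3 CPM in ‘Manatee’, 14.0, 8.91 and 14.0 in 60184 and 1.13, 1.40 and 0.312 in ‘Okeechobee’. Lsat_1_v5_gn_5_32001 of the same kind had 38.7, 52.9 and 42.7 CPM in ‘Manatee’, 6.93, 9.31 and 10.5 in 60184 and 1.16, 1.08 and 0.429 in ‘Okeechobee’. Both were graded, with ‘Manatee’ highest, 60184 next and ‘Okeechobee’ lowest, and the distances from 60184 were 2.59 and 2.33 (adjusted p of 0.0011 and 7.5e-04). Below the range, receptor-like protein 54 (Lsat_1_v5_gn_1_60701) had 0.321, 0.459 and 0.450 CPM in ‘Manatee’, 9.49, 11.9 and 10.9 in 60184 and 22.3, 22.2 and 18.0 in ‘Okeechobee’. The log2 difference in the contrast was -5.18 (standard error 0.20, adjusted p = 2.2e-06).

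Enzymes that modify small molecules supplied genes on both sides. Of 69 genes of glycosyl and acyl transfer, 25 were called higher and 6 lower, 13 lay above and 3 below, and 10 of the 13 were distant. Without ‘Manatee’ replicate 2, 17 of these were called higher and 7 lower. Of 53 genes of phenolic compounds and their oxidation, 14 were called higher and 5 lower, with 9 above and 4 below, and without that library 11 and 6 were called. Of 59 cytochrome P450 genes, 13 were called higher and 10 lower, with 10 above and 6 below, and without it 9 and 8 were called. Of these lists, in turn, 23.2%, 24.5% and 27.1% lay outside the range, against 16.9% of all described genes. The 3 P450 members outside the range with the smallest p were all below and carried the same family description. Lsat_1_v5_gn_4_120041 had 2 reads in ‘Manatee’, 464 in 60184 and 631 in ‘Okeechobee’. Lsat_1_v5_gn_4_121121 had 4.04, 5.76 and 2.57 CPM in ‘Manatee’, 44.4, 29.1 and 29.0 in 60184 and 80.5, 35.4 and 29.5 in ‘Okeechobee’. Its contrast was -3.30 (standard error 0.42, adjusted p = 0.0013).

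Of 28 genes of terpene synthesis, 6 were called higher and 3 lower. The calls were 3 and 2 without ‘Manatee’ replicate 2 and 5 and 1 without 60184 replicate 1. Over all 3732 described genes 703 were called higher and 409 lower. In the terpene list 14.3% lay outside the range, against 16.9% of all described genes, and 4 genes lay above and none below. 2 of the 4 are described as germacrene A hydroxylases, which act in the synthesis of the bitter sesquiterpene lactones of lettuce. Lsat_1_v5_gn_8_115261 had 76.7, 112 and 83.9 CPM in ‘Manatee’, 14.1, 19.6 and 16.4 in 60184 and 75.4, 57.2 and 75.2 in ‘Okeechobee’. Lsat_1_v5_gn_3_65300 had 259, 443 and 336 CPM in ‘Manatee’, 221, 232 and 247 in 60184 and 104, 129 and 81.2 in ‘Okeechobee’. The first was close to ‘Okeechobee’, at 0.39 above it (adjusted p = 0.2), and the second close to 60184, at 0.57 above it (adjusted p = 0.11). Neither small difference passed the test.

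**Figure D3:**
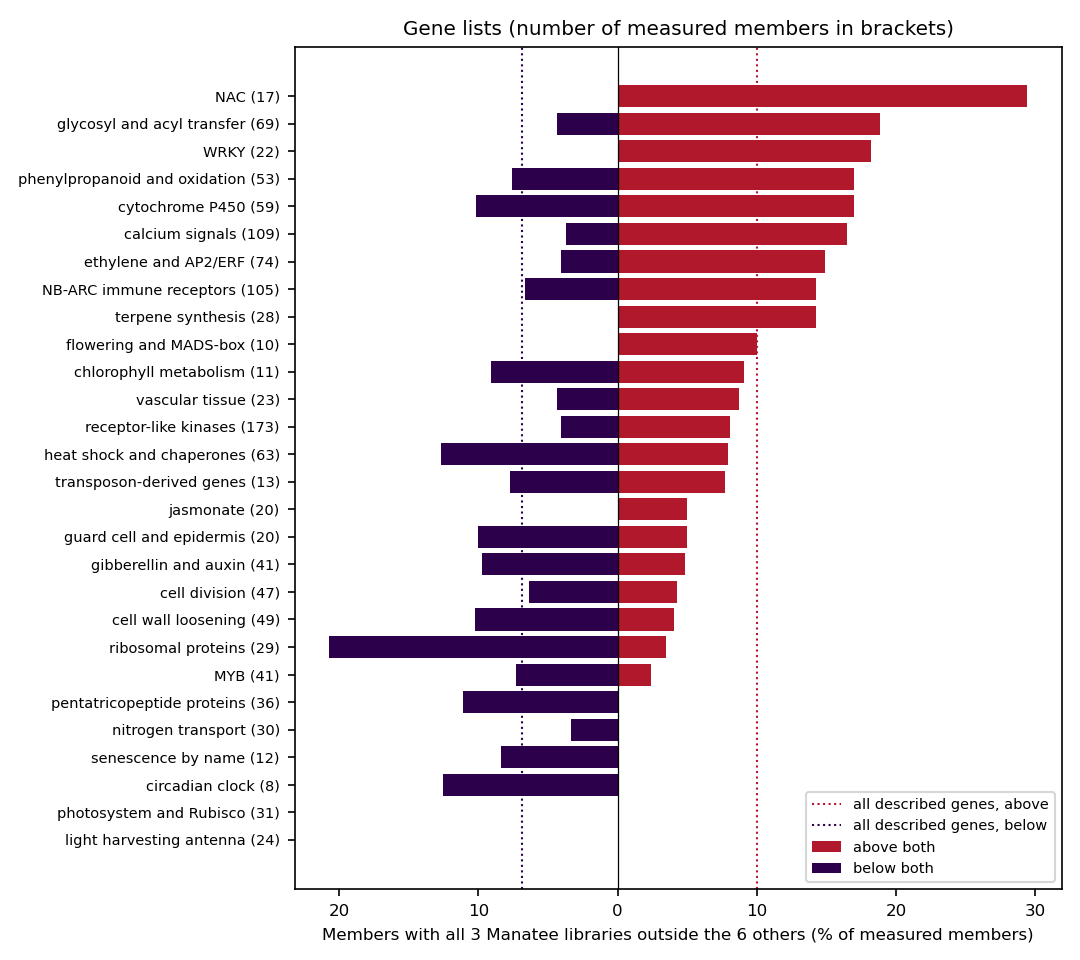
Share of measured members of each gene list (rows, number of members in brackets) with all 3 Manatee libraries above the 6 others (right, red) or below them (left, dark), in percent. The dotted lines give the shares over all 3732 described genes, 9.99% above and 6.86% below. NAC genes have the longest bar above, with 5 of 17, and antenna and photosystem genes have none.

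No described antenna or core photosynthesis gene was in the set. Genes without a description could not be placed in these lists. The rule favours genes at which 60184 and ‘Okeechobee’ are alike, and it is harder to meet where libraries of a genotype spread. Antenna medians of log2 CPM minus the mean of the genotypes were 0.03, -1.76 and -0.13 in ‘Manatee’ replicates 1, 2 and 3. They were 2.65, 1.26 and 1.35 in those of 60184. The absence of antenna genes therefore follows in part from the rule. None of the 24 antenna genes and none of the 31 photosystem and Rubisco genes lay outside the range. 2 antenna genes and 4 photosystem genes were intermediate, all of them falling from 60184 to ‘Okeechobee’. Without ‘Manatee’ replicate 2, 15 of the antenna genes and 8 of the photosystem genes were intermediate, and 1 photosystem gene lay above, as 1 did with DESeq2 size factors. The contrast called 2 antenna genes lower and none higher, and 1 lower without that library. Of 11 genes of chlorophyll metabolism, 1 lay above and 1 below, and without either ‘Manatee’ replicate 2 or 60184 replicate 1 none was called lower. Glutamyl-tRNA reductase (Lsat_1_v5_gn_9_114080), which starts the pathway to chlorophyll and heme, had 201, 296 and 188 CPM in ‘Manatee’, 118, 85.8 and 92.9 in 60184 and 56.6, 52.4 and 59.6 in ‘Okeechobee’. It was 1.62 higher (standard error 0.17, adjusted p = 3.4e-04). Protochlorophyllide reductase (Lsat_1_v5_gn_7_105400), a later step of chlorophyll synthesis, had 1.80, 0.318 and 1.35 CPM in ‘Manatee’, 9.12, 6.41 and 5.88 in 60184 and 2.72, 2.69 and 9.72 in ‘Okeechobee’. Its contrast was -2.36 (standard error 0.61, adjusted p = 0.039), and its libraries spread widely in every genotype.

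Among genes of cell wall loosening more were called lower than higher. Of 49 measured, 15 were called lower and 6 higher, with 5 below the range and 2 above. Leaving out ‘Manatee’ replicate 2 gave 8 called lower and 4 higher, with 8 below and 2 above. Without 60184 replicate 1, 9 were called lower and 5 higher. Lsat_1_v5_gn_8_154380, a pectate lyase, which cuts pectin between cells, had 34.4, 13.3 and 22.4 CPM in ‘Manatee’, 199, 149.7 and 108 in 60184 and 67.0, 113 and 167 in ‘Okeechobee’. Its contrast was -2.51 (standard error 0.40, adjusted p = 0.0044). Lsat_1_v5_gn_5_190321, a pectinesterase or its inhibitor by description, had 1.60, 3.18 and 2.28 CPM in ‘Manatee’, 8.19, 3.39 and 3.89 in 60184 and 18.6, 30.5 and 27.8 in ‘Okeechobee’. ‘Manatee’ was lowest in both genes, but in the second 60184 was near it, at a distance of -1.13 (adjusted p = 0.07).

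Ribosomal protein genes had the largest share below the range of the lists with more than 20 members. Of 29, 6 lay below and 1 above, 7 were called lower and 3 higher, and without ‘Manatee’ replicate 2 these counts were 6, 1, 6 and 3. Lsat_1_v5_gn_4_6460, a protein of the small subunit, had 12 reads in ‘Manatee’, 334 in 60184 and 383 in ‘Okeechobee’. Lsat_1_v5_gn_3_98961, an L34 protein of the large subunit, was the one above, with 56.0, 65.0 and 54.5 CPM in ‘Manatee’, 34.4, 21.8 and 23.0 in 60184 and 20.7, 17.2 and 26.9 in ‘Okeechobee’. Of 36 pentatricopeptide genes, whose proteins bind RNA in organelles, 4 lay below and none above, with 5 called lower and 1 higher. The calls were 2 lower and none higher without ‘Manatee’ replicate 2.

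Of 63 chaperone genes, 8 lay below the range and 5 above, although 11 were called higher and 9 lower. The calls were 9 and 9 with library size only or upper quartile scaling, 7 and 9 without ‘Manatee’ replicate 2, and 7 and 8 without 60184 replicate 1. Lsat_1_v5_gn_5_111420, described as the chloroplast protease chaperone CLPC1, had no read in ‘Manatee’ and 972 and 455 reads in the other genotypes. Lsat_1_v5_gn_6_10640, the copper chaperone of superoxide dismutase, had 93.6, 78.0 and 63.2 CPM in ‘Manatee’, 32.5, 29.8 and 37.1 in 60184 and 30.9, 33.6 and 28.0 in ‘Okeechobee’. It was 1.29 higher (standard error 0.13, adjusted p = 3.4e-04), and the other genotypes overlapped.

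The remaining lists were of 8 to 47 genes. Between 3.33% (nitrogen transport) and 15.4% (transposon-derived) of a list lay outside the range, against 16.9% of all described genes. Among 30 genes of nitrogen transport 3 were called higher and 1 lower, 2 and 1 without ‘Manatee’ replicate 2, and outside the range there was only Lsat_1_v5_gn_4_4881, a nitrate carrier, with 1.12, 8.09 and 0.547 CPM in ‘Manatee’, 60.5, 43.3 and 102 in 60184 and 57.8, 37.2 and 25.3 in ‘Okeechobee’. Its contrast was -4.02 (standard error 0.81, adjusted p = 0.014), with ‘Manatee’ replicate 2 well above replicates 1 and 3. Of 23 vascular genes 5 were called higher and 1 lower, 3 and 1 without ‘Manatee’ replicate 2, and 2 lay above and 1 below, the latter a cellulose synthase gene, Lsat_1_v5_gn_2_15841, with 2.21, 1.20 and 2.22 CPM in ‘Manatee’, 42.3, 65.5 and 62.8 in 60184 and 25.5, 44.1 and 63.0 in ‘Okeechobee’. Of 47 cell division genes 4 were called higher and 6 lower, with 2 above the range and 3 below, and the calls were 3 and 1 without ‘Manatee’ replicate 2 and 3 and 2 without 60184 replicate 1. Of 20 guard cell and epidermis genes 1 was called higher and 4 lower, with 1 above and 2 below, and the calls were 1 and 1 without the first of these libraries and 1 and 2 without the second. Of 8 clock genes 2 were called higher and 1 lower and 1 lay below, whereas library size only and upper quartile scaling called 1 higher and 2 lower, and without either library none was called higher. Of 10 flowering genes 2 were called higher and 1 lay above, also without either library. Of 13 transposon-derived genes 4 were called each way and 1 lay on each side, with calls of 2 and 4 without ‘Manatee’ replicate 2 and 2 and 1 without 60184 replicate 1. Of 12 genes named after senescence 3 were called higher and 2 lower, 4 and 1 without ‘Manatee’ replicate 2 and 3 and none without 60184 replicate 1, and the 1 below the range did not pass the test.

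**Figure D4:**
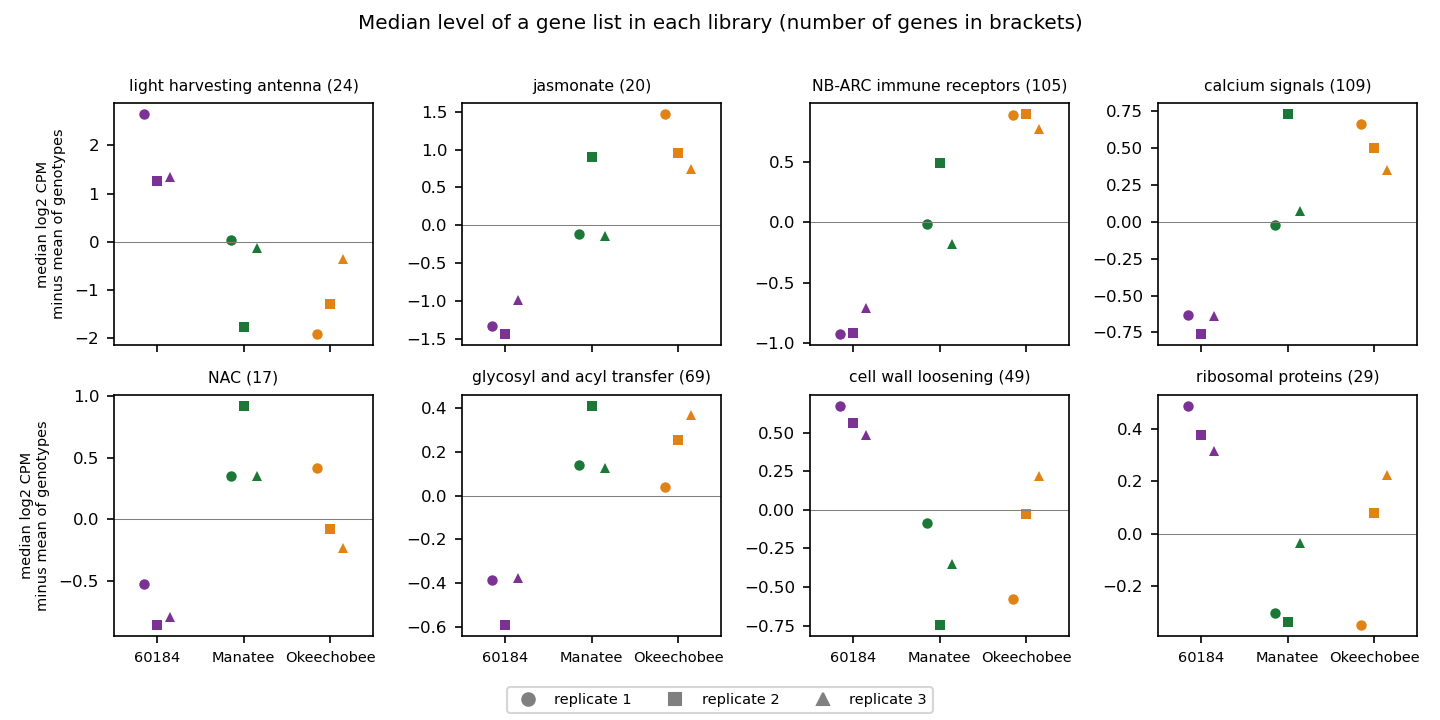
Median over the genes of a list of log2 CPM minus the mean of the 3 genotypes (y axis), 1 symbol per library, for 8 lists with the number of genes in brackets. For NAC genes all Manatee libraries lie above those of 60184, but Okeechobee replicate 1 (0.42) lies above Manatee replicates 1 and 3 (both 0.36). For jasmonate, NB-ARC and antenna genes Manatee replicates 1 and 3 lie between the other genotypes. In the jasmonate and NB-ARC lists Manatee replicate 2 lies nearer the Okeechobee libraries than Manatee replicates 1 and 3 do. In the antenna list Manatee replicate 2 lies within the range of the Okeechobee libraries.

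The intermediate genes give the contrast to the set. The rule holds ‘Okeechobee’ and 60184 apart in them, so it follows from the choice that 1049 of the 1065 were called between those genotypes and 54 in the contrast of ‘Manatee’ with the mean of both. Among the outside genes 443 of 2641 were called between ‘Okeechobee’ and 60184, a comparison that called 31.4% of all tested genes. This lower share too follows in part from the rule, which favours genes at which those genotypes are alike. The receptor-like gene Lsat_1_v5_gn_6_42241, matched to EIX2, a tomato receptor for a fungal protein, had 28.5, 40.4 and 34.4 CPM in ‘Manatee’, 3.90, 3.98 and 3.29 in 60184 and 68.5, 66.3 and 49.6 in ‘Okeechobee’. Lsat_1_v5_gn_0_16380, a kinase like FERONIA, which senses the state of the cell wall in Arabidopsis, had 9.75, 9.86 and 8.33 CPM in ‘Manatee’, 1.40, 1.76 and 2.02 in 60184 and 19.0, 21.5 and 26.8 in ‘Okeechobee’. Both rose in steps from 60184 through ‘Manatee’ to ‘Okeechobee’. An ATPase-domain NB-ARC gene, Lsat_1_v5_gn_8_121540, fell in steps, with 9.01, 6.86 and 8.33 CPM in ‘Manatee’, 81.5, 84.1 and 88.1 in 60184 and 0.199, 0.384 and 0.585 in ‘Okeechobee’.

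Other genes that met the intermediate rule were in fact close to 1 genotype. The MADS-box gene Lsat_1_v5_gn_4_10400 had 23.4, 25.1 and 24.4 CPM in ‘Manatee’, 26.5, 25.8 and 26.2 in 60184 and 0.199, 0.0349 and 0.117 in ‘Okeechobee’. The log2 difference of ‘Manatee’ was -0.11 from 60184 (adjusted p = 0.72) and 7.64 from ‘Okeechobee’. The study chose 9 genes for RT-qPCR partly by a high fold change between 60184 and ‘Okeechobee’, so their place here follows in part from that choice. None of the 9 lay outside the range and 8 were intermediate, against 4.70% of all tested genes. The exception was the thiolase gene Lsat_1_v5_gn_5_179700, with 35.2, 136 and 36.9 CPM in ‘Manatee’, 48.0, 35.6 and 49.5 in 60184 and 428, 417 and 345 in ‘Okeechobee’, where ‘Manatee’ overlapped 60184. Light harvesting gene LHCB2 (Lsat_1_v5_gn_9_104740) had 1.80, 0.424 and 2.03 CPM in ‘Manatee’, 540.2, 243 and 253 in 60184 and 0.265, 0.174 and 0.312 in ‘Okeechobee’. By rank it was intermediate, but its ‘Manatee’ level was near that of ‘Okeechobee’.

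Neighbours of genes outside the range were themselves outside it more often than tested genes in general, without a test of the excess. The identifiers carry a chromosome number and rise along it, and 65 of 76 genes that could be placed in RefSeq through their descriptions had the same number there. In identifier order, the next tested gene was also outside the range for 15.2% of the set, against 11.6% of all placed genes. For the 757 distant genes with a chromosome number, the next gene was distant too for 15.3%, against 3.41% of all placed genes. For the intermediate genes the shares were 6.21% and 4.72%, for the genes outside the range in 60184 29.2% and 26.5%, and for those in ‘Okeechobee’ 20.4% and 18.9%. By chromosome, 9.55% (chromosome 9) to 13.0% (chromosome 1) of the tested genes lay outside the range in ‘Manatee’.

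In 440 windows of 50 tested genes, the median number outside the range was 5 and the median number of distant genes was 1. The window at the start of chromosome 2, from Lsat_1_v5_gn_2_241 to Lsat_1_v5_gn_2_2740, held 25 genes outside the range, 20 of them below, and 17 distant genes. The next highest windows held 17 and 11. In the same window 8 genes lay outside the range in 60184 and 14 in ‘Okeechobee’, where the medians over windows were 13 and 9, and none was intermediate. It was singled out after its values had been seen. Under the other scalings, filters and left-out libraries it held 24 to 28 genes outside the range and 14 to 18 distant genes.

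Immune receptor and other leucine-rich repeat genes were among the described genes of this window. Lsat_1_v5_gn_2_261, an NB-ARC gene, had 5.64, 5.02 and 3.28 CPM in ‘Manatee’, 15.8, 18.0 and 16.9 in 60184 and 32.5, 34.2 and 33.1 in ‘Okeechobee’. Lsat_1_v5_gn_2_281, a leucine-rich repeat gene, had 3.11, 4.17 and 3.60 CPM in ‘Manatee’, 9.56, 12.6 and 14.5 in 60184 and 21.0, 28.5 and 24.9 in ‘Okeechobee’. Lsat_1_v5_gn_2_940, another such gene, had 2.28, 2.33 and 2.19 CPM in ‘Manatee’, 15.7, 14.99 and 16.5 in 60184 and 20.2, 19.4 and 22.5 in ‘Okeechobee’. All 3 were lowest in ‘Manatee’ and highest in ‘Okeechobee’, as was the NB-ARC gene Lsat_1_v5_gn_2_340 described above. Their contrasts were -2.35, -2.26 and -2.99 (adjusted p of 4.9e-05, 9.4e-05 and 3.1e-06). A further NB-ARC gene of the window, Lsat_1_v5_gn_2_241, was not outside the range, with 765 reads in ‘Manatee’, 934 in 60184 and 1719 in ‘Okeechobee’. Similar receptor genes that lie side by side can share reads, and the split between them is uncertain where they do.

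Some genes of other functions in the window were lower too, and others were not. Lsat_1_v5_gn_2_620, matched to IRE1B, a sensor of misfolded proteins in the endoplasmic reticulum, had 34.6, 27.4 and 30.6 CPM in ‘Manatee’, 64.0, 74.6 and 82.2 in 60184 and 138, 108 and 98.0 in ‘Okeechobee’. Another gene of the window, described as inositol requiring 1-1, was not outside the range, with 12346 reads in ‘Manatee’, 4143 in 60184 and 13739 in ‘Okeechobee’. Lsat_1_v5_gn_2_1040, a subunit of the proton pump of the vacuole, had 5 reads in ‘Manatee’, 1214 in 60184 and 619 in ‘Okeechobee’. Lsat_1_v5_gn_2_1140, a helicase-like gene named after Fanconi anemia, had 12, 621 and 715. One described distant gene of the window was above the range, Lsat_1_v5_gn_2_2080, of unknown function, with 120.1, 153 and 125 CPM in ‘Manatee’, 46.0, 40.6 and 47.2 in 60184 and 61.5, 54.9 and 81.5 in ‘Okeechobee’. Its contrast was 1.29 (standard error 0.14, adjusted p = 4.9e-04).

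**Figure D5:**
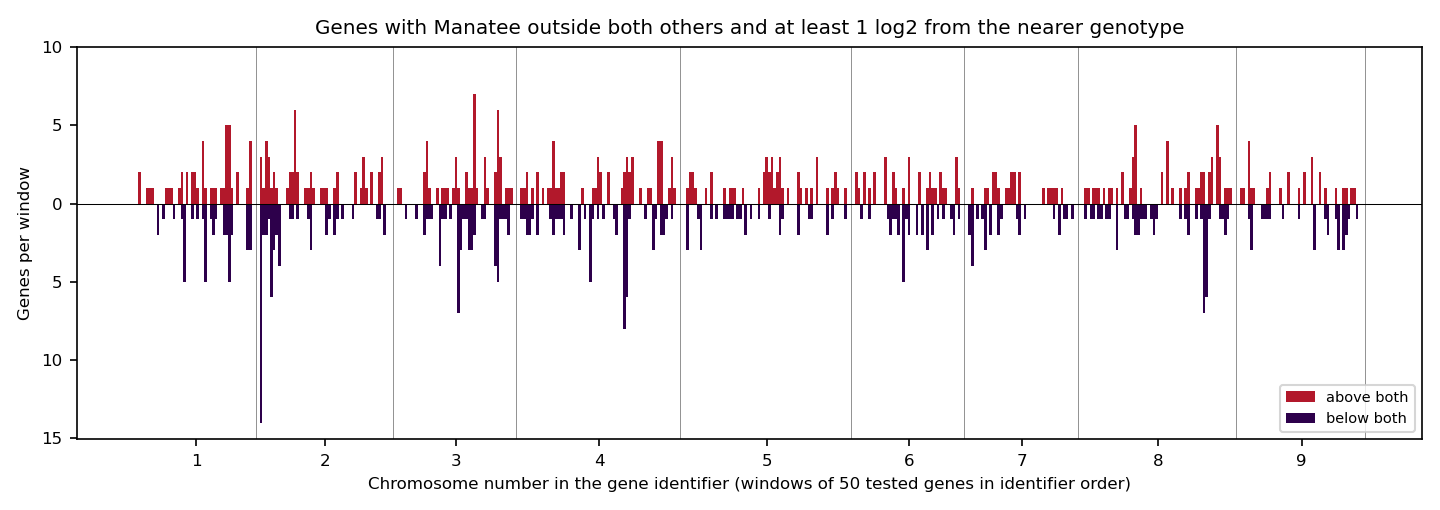
Number of distant genes, those with Manatee outside both other genotypes by at least 1 log2 from the nearer, in windows of 50 tested genes in identifier order along the 9 chromosomes (x axis), above both upwards and below both downwards. The first window of chromosome 2 stands out with 14 genes below and 3 above, and no other window reaches more than 11 in all.

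The other dense windows held both directions. On chromosome 3 a window from Lsat_1_v5_gn_3_117060 to Lsat_1_v5_gn_3_120181 had 11 distant genes, 6 above and 5 below. A window on chromosome 1, from Lsat_1_v5_gn_1_85201 to Lsat_1_v5_gn_1_89941, had 10, with 5 on each side. The described genes Lsat_1_v5_gn_1_85921, a leucine-rich repeat gene silent in ‘Manatee’, and Lsat_1_v5_gn_1_89581, the malectin kinase with its highest level in ‘Manatee’, both lie in it. On chromosome 4 adjoining windows, from Lsat_1_v5_gn_4_117700 to Lsat_1_v5_gn_4_125741, had 10 and 9 distant genes, and the P450 genes Lsat_1_v5_gn_4_120041 and Lsat_1_v5_gn_4_121121, lower in ‘Manatee’, lie there.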

How the data were processed

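RNA sequencing libraries of 3 romaine lettuce genotypes, 3 replicates each, were compared. Each deposited file holds raw read counts per gene, which the authors made by trimming with Cutadapt, mapping to the lettuce v5 genome with STAR, and using HTSeq, SAMtools and their own scripts to take out likely PCR duplicates and count reads mapped to 1 place. The lines for reads outside genes, in several genes or mapped repeatedly were left out of library sizes. Reads outside genes were 5.24% to 12.01% of the uniquely mapped reads.

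Of 38910 genes, the 22658 with at least 10 reads in at least 3 libraries were tested. Counts were scaled by TMM and fitted in 1 robust quasi-likelihood model over all 9 libraries (edgeR 4.0.16, R 4.3.3), with ‘Manatee’ set against the mean of the other genotypes, Benjamini-Hochberg adjustment over all tested genes and a threshold of 0.05. Log2 CPM used a prior count of 2, and libraries at 0 reads were treated as ties. A fold against a genotype without reads is given against a floor of 3 reads over the genotype, and intervals are exact 95% counting intervals. The fit was tested on simulated counts. Python 3.11.15 with pandas 2.3.3, scipy 1.17.1 and matplotlib 3.10.9 made the summaries and figures.

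Gene descriptions came from the study’s supplementary tables and the 28 lists from words in them. One of those tables, planned as a set not picked by a difference, was also rich in called genes and was not used as such. The genes and lists were chosen with earlier results of these data known. Named were, among described genes, the 12 in each direction with the smallest p among those with an absolute log2 difference of at least 1 and a mean of 100 counts or more in a genotype, the 3 in each direction with the highest mean CPM, up to 3 of each list outside the range with the smallest p, 4 rising and 4 falling intermediate genes, the genes at the edge of the rule and the study’s 9 RT-qPCR genes. The genes named in the chromosome 2 window were chosen after their values were seen.

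Alternatives were DESeq2 1.42.0, other scalings, filters and prior counts, thinning to the smallest library, stricter calls, a replicate block and leaving out each library. The counts by list without ‘Manatee’ replicate 2, without 60184 replicate 1 and under other scalings, and the alternatives for distant genes and for the window, were added after seeing the data.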

Additional observations from a re-analysis of the deposited data

How the results depend on the processing

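The contrast of ‘Manatee’ with the mean of the others, which called 2376 genes (1428 higher, 948 lower), called 4005 (2231 and 1774) with DESeq2, 1397 with an absolute log2 difference of at least 1, 394 with one of at least 2 and a mean of 100 counts in a genotype, and 783 when both genotypes had to differ separately. Leaving out 1 library gave 1322 to 2476 calls, 873 to 1520 higher and 449 to 956 lower. Counts fell by over 1.5 times without any ‘Manatee’ replicate (1455, 1505 and 1322 for replicates 1, 2 and 3), without 60184 replicate 2 (1412) and, for lower genes, without 60184 replicate 3 (593). Correlations of same-numbered libraries across genotypes ran from -0.30 to 0.28, and those of libraries with unlike numbers from -0.42 to 0.50. These values show no pairing by replicate number, but they cannot decide whether samples were handled together. A replicate block called 1538 genes (936 and 602). Genes outside the range numbered 2855 to 3663 with a library left out (1468 to 1983 above, 1334 to 1769 below), 318 with a gap of at least 1 and 1532 when also called. Intermediate genes numbered 1250 to 2683, most without ‘Manatee’ replicate 2, and 9897 by means alone. The contrasts for 60184 and ‘Okeechobee’ called 3603 to 6849 and 3925 to 6912 genes. Of the 104 named genes 94 were called, 94 of which kept their direction and 79 their call in every setting. Of the uncalled RT-qPCR genes, 3 changed sign with a library left out: Lsat_1_v5_gn_3_31741 ran from -0.27 (without ‘Manatee’ replicate 2) to 0.66, Lsat_1_v5_gn_4_1821 from -0.10 (without ‘Manatee’ replicate 1) to 0.17 and Lsat_1_v5_gn_4_65921 from -0.043 (without ‘Manatee’ replicate 1) to 0.34. The causes were not tested.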
